A study of Mus musculus with 4 samples.

Results

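The genes described here belong to the unfolded protein response and the integrated stress response, and were measured in whole retinas of adult mice that had lost Nrl, the transcription factor that specifies rod photoreceptors. They are 36 listed genes, of which 35 had a probe set on the arrays, out of 19421 genes tested. The other, Pdia4, was not analysed here. The knockout retinas came from Nrlflox/flox; CAG-CreERTM mice and the control retinas from Nrlflox/+; CAG-CreERTM mice, so every control animal also carried a floxed allele and the Cre, and kept an intact allele. CreERTM is a Cre recombinase that acts once 4-hydroxytamoxifen binds it, here under the ubiquitous CAG promoter, so recombination was not limited to rods. All mice received 4-hydroxytamoxifen by intraperitoneal injection each day from postnatal day 42 to 44, and retinas were taken on day 63, 19 days after the last injection. Each genotype had 2 arrays, and each array held RNA pooled from 4 retinas of 2 animals.

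Proteins that enter the endoplasmic reticulum (ER) are folded there by chaperones, and an overload of unfolded protein is sensed by the membrane proteins encoded by Ern1 (IRE1), Atf6 and Eif2ak3 (PERK). IRE1 splices the mRNA of Xbp1, and XBP1 and ATF6 then raise the genes of chaperones and of ER-associated degradation, which takes misfolded proteins out for destruction. PERK and the amino acid sensor encoded by Eif2ak4 (GCN2) instead phosphorylate the translation factor eIF2, which slows protein synthesis while favouring translation of ATF4, an activator of amino acid supply and stress genes. The retina is a tissue in which this system is often studied, since photoreceptors make large amounts of membrane protein and misfolded rhodopsin is a known cause of their loss. The arrays report mRNA levels, so splicing of Xbp1, phosphorylation of eIF2 and translation of Atf4 were not measured.

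Each branch acts through a known promoter element. The upstream sequences of Hspa5, the classic chaperone gene of the response, and of Nupr1, the member with the largest change, are shown whole, from RefSeq (GRCm38.p6), 250 bases up to the base before the start site. Capitals mark the ER stress response element (ERSE, CCAAT and CCACG with any 9 bases between them) in Hspa5, at chr2:34771840-34772089 on the plus strand, and the C/EBP-ATF response element (CARE, TGATG and AA with any 1 base between them), which ATF4 binds, in Nupr1, at chr7:126625471-126625720 on the minus strand, where it is written as its reverse complement.
Hspa5: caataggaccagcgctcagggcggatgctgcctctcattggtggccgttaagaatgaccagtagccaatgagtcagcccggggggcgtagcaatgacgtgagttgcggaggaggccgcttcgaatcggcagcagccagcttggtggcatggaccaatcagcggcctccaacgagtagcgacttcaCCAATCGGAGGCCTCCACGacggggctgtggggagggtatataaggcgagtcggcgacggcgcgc
Nupr1: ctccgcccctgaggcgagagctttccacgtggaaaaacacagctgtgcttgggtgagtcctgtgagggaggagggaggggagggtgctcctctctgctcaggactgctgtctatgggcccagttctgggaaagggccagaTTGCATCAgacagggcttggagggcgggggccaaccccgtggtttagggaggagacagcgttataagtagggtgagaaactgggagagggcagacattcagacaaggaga

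RefSeq promoter entries of 300 bases, running past the start site, were found for 31 of the 35 measured members. On either strand, ERSE occurred in 7 of 11 chaperone genes with an entry (Calr, Canx, Creld2, Dnajc3, Hsp90b1, Hspa5 and Pdia6), against 0.119% of all 32851 entries. CARE occurred in 6 of 11 ATF4 target genes (Asns, Chac1, Nupr1, Slc7a11, Trib3 and Vldlr), against 3.97% of all entries. The shorter ERSE-II (ATTGG and CCACG with any 1 base between them) was present in the entries of Dnajb11 and Herpud1, against 0.0365% of all, and Herpud1 also held a CARE and Syvn1 an ERSE. In all, 6 patterns were searched, and the 3 shown were chosen after their matches had been seen. Of the other 3, TGACGTG, the core of the unfolded protein response element, was matched in 1 member, Hspa5, against 2.01% of all entries. CARE with C as its free base, which is part of the CARE matches above, was matched in 5 members (Chac1, Herpud1, Nupr1, Slc7a11 and Vldlr), against 0.895% of all entries. CCAAT followed by any base, a pattern that overlaps ERSE, was matched in 24 of the 31 members, against 37.3% of all entries. A member was counted once if any of its entries matched (35 entries for the 31 members), whereas the shares are over entries. The matches of Trib3 (bases 15 to 22) and Dnajb11 (bases 8 to 18) lay past the start site. All of these are matches of letters, not measured binding sites. Stretches of 50 bases around some of the matches are given to set the ATF4 target genes beside the chaperone genes; the capitals again mark the motif, on whichever strand it was found.
Asns, chr6:7693210-7693259, minus strand, CARE: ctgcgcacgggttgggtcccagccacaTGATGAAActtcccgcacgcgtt
Slc7a11, chr3:50443651-50443700, minus strand, CARE: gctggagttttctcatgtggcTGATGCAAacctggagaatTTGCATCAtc
Chac1, chr2:119351028-119351077, plus strand, CARE: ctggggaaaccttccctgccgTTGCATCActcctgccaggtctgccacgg
Vldlr, chr19:27216799-27216848, plus strand, CARE: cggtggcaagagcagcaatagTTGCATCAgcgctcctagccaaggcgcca
Canx, chr11:50325785-50325834, minus strand, ERSE: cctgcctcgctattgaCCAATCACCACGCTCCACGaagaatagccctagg
Pdia6, chr12:17266475-17266524, plus strand, ERSE: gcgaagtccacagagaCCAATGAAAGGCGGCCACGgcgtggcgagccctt
Creld2, chr15:88819504-88819553, plus strand, ERSE: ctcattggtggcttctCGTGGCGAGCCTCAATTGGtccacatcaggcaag
Chac1, Nupr1, Slc7a11 and Vldlr share the same CARE letters (TTGCATCA or its reverse complement TGATGCAA), while that of Asns differs at the free base. Their mRNA changes, given below, ran from −0.12 to 1.11 on the log2 scale.

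**Figure D1:**
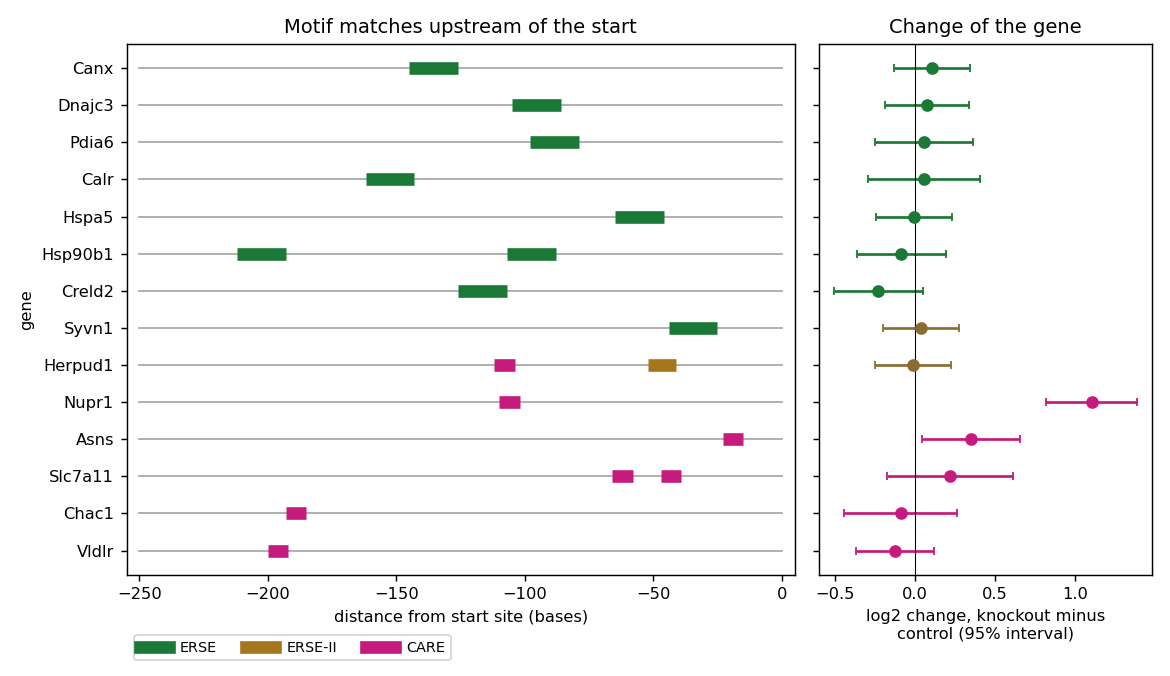
Left, positions of ERSE (green), ERSE-II (brown) and CARE (pink) matches in the 250 bases upstream of the start site, in bases from that site, for the 14 measured members with a match there. Right, each gene's log2 change, knockout minus control, with its 95% interval (limma, 2 arrays per genotype). The 7 chaperone genes with an ERSE lie between −0.23 and 0.11, and of the 5 ATF4 target genes with a CARE, Nupr1 stands at 1.11 and Vldlr at −0.12.

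The arrays lay on a common log2 scale, with array medians over all genes between 5.96 and 6.01. Nrl had levels of 7.57 and 7.05 in knockout, against 8.21 and 8.13 in control, a log2 change of −0.86 (SE 0.18, limma adjusted p = 0.289); its direction is that of the labels, and whether its probes fall in the floxed region was not known here. The retinal genes Sag and Rcvrn had levels of at least 10.05 on every array, with changes of −0.32 and −0.22. Crx ran from 8.04 to 8.34, Pax6 from 8.97 to 9.08 and Rlbp1 from 7.11 to 7.75. Their changes were −0.20, 0.061 and −0.32, and none of these retinal genes was called. Replicate numbers went with the sex of the pools in both genotypes: Xist was at 4.07 and 10.66 in knockout replicates 1 and 2, against 4.09 and 10.47 in the same control replicates. The spread within a genotype, on which every p-value here rests, therefore includes any difference between the sexes.

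Of the 35 measured members, 1 was called at an adjusted p under 0.05 (limma, Benjamini-Hochberg adjustment over all genes), and it rose: Nupr1. Over all genes 0.201% were called, and 0.139% were called higher. At an unadjusted p under 0.05 there were 2 members, Nupr1 and Asns, both higher in knockout, which is 5.71% of the members, against 3.71% of all genes higher, 3.37% lower and 7.07% in either direction. The same 2 members were the ones with a change of at least 0.3 on the log2 scale either way, which 7.25% of all genes reached. A change above 0 was seen in 22 members (62.9%), against 49.0% of all genes. Both knockout arrays lay above both control arrays in 6 members (17.1%), against 17.0% of all genes, and below both in 4 members (11.4%), against 18.4% of all genes. A change under 0.1 on the log2 scale in either direction was seen in 65.7% of the members and 53.5% of all genes. Counted this way, the share of members above both controls was close to that of all genes, and the share below both controls was smaller.

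Nupr1 encodes a small stress-inducible protein that binds chromatin and is a known target of ATF4. It had log2 levels of 8.02 and 8.21 in the knockout pools, against 6.94 and 7.08 in the control pools. Both knockout arrays lay far above both controls, and the replicates of a genotype differed by little. The mean was 8.11 ± 0.14 in knockout and 7.01 ± 0.10 in control (SD, n = 2 each), a log2 change of 1.11 (SE 0.12, 95% interval 0.82 to 1.39, limma adjusted p = 0.0402), or 2.15-fold (1.77 to 2.62). The differences within replicate numbers 1 and 2 were 1.08 and 1.14. Only 0.257% of all genes had a larger change in either direction. The call sits near the threshold: it was lost with the replicate number as a block (adjusted p = 0.0695) and without any 1 of the 4 arrays (adjusted p between 0.135 and 0.452), while the change stayed between 1.01 and 1.20.

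Levels of markers of other cell types and states were set beside those of Nupr1. For scale, both knockout arrays lay above both controls in 17.0% of all genes and below both in 18.4%. A share of 0.139% of all genes was called higher. All 13 genes listed as reactive glia markers had both knockout arrays above both controls. They were Gfap, Vim, A2m, Osmr, Stat3, Cebpd, Lcn2, Edn2, Socs3, Cp, Serpina3n, Timp1 and Lif, and the cells that expressed each were not tested. Their summed signal on the linear scale was 2269 and 2553 in knockout, against 1398 and 1267 in control. Of 16 measured microglia and macrophage markers, 10 lay above both controls and 2 below, with sums of 1566 and 1528 in knockout, against 920 and 937 in control. Of 12 measured rod markers, 11 lay below both controls, with sums of 14458 and 14222 in knockout, against 27925 and 26821 in control. Cone markers were mixed: of 10, 3 lay above both controls and 4 below, the median change was −0.13 and 2, Gnb3 and Gnat2, were called higher (limma adjusted p = 0.0366 and 0.0402), with sums of 6553 and 6265 in knockout, against 5418 and 4734 in control. Of 10 Müller glia markers, none was called, 3 lay above and 1 below, and the median change was 0.041, with sums of 3037 and 2924 in knockout, against 2646 and 2454 in control. None of the measured markers of retinal pigment epithelium (10), lens (9) and erythrocytes (1) was called. The part of these markers in the rise of Nupr1 was not tested, and in RNA of whole retina a change in the number of cells of a type and a change in RNA per cell cannot be told apart.

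**Figure D2:**
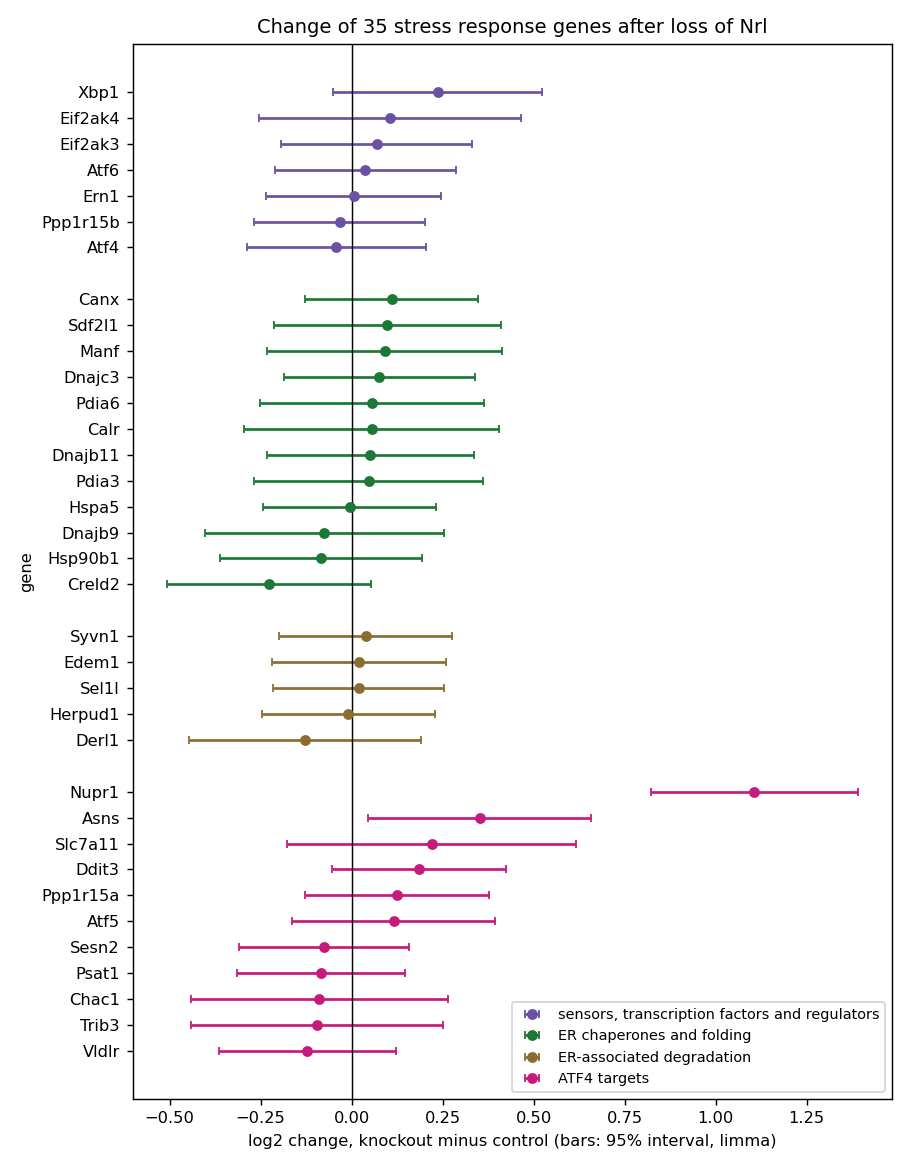
Log2 change, knockout minus control, of the 35 measured members, grouped by role from sensors at the top to ATF4 targets at the bottom; points are limma estimates and bars their 95% intervals (2 arrays per genotype). The interval includes 0 in 33 members, and Nupr1, at 1.11, and Asns, at 0.35, are the exceptions.

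Among the sensors and their regulators none of 7 members was called, against 0.201% of all genes. In this group none had an unadjusted limma p under 0.05, against 7.07% of all genes. Xbp1 had the smallest p of this group. It stood at 6.64 and 6.88 in knockout, against 6.52 and 6.54 in control, with both knockout arrays above the controls. The log2 change was 0.24 (SE 0.12, 95% interval −0.05 to 0.52, limma adjusted p = 0.775), and it ran from 0.11 to 0.36 when 1 array was left out, the lowest without knockout replicate 2. Atf4 itself had levels of 7.15 and 7.06 in knockout, against 7.11 and 7.18 in control, so that the groups overlapped, with a change of −0.042 (SE 0.10). The sensor genes had changes of 0.0059 for Ern1, 0.038 for Atf6, 0.068 for Eif2ak3 and 0.10 for Eif2ak4. That of Eif2ak4 was less precise (SE 0.15, 95% interval −0.26 to 0.46), with 6.85 and 6.73 in knockout, against 6.87 and 6.49 in control. Ppp1r15b, the constitutive subunit that directs a phosphatase to eIF2, had −0.033.

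None of the 12 measured chaperone and folding genes was called, against 0.201% of all genes. None of them had an unadjusted limma p under 0.05, against 7.07% of all genes. Hspa5 encodes the ER chaperone BiP, which also holds the sensors inactive. It had levels of 9.09 and 9.11 in knockout, against 9.14 and 9.07 in control. The knockout values lay between the control values, and the change was −0.0059 (SE 0.098), with a 95% interval of −0.24 to 0.23 that corresponds to 0.844-fold to 1.17-fold. Hsp90b1, the ER member of the HSP90 family, had 11.39 and 11.41 in knockout, against 11.60 and 11.38 in control, a change of −0.083.

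Calr and Canx encode the lectin chaperones that hold glycoproteins during folding. Canx had 10.94 and 10.86 in knockout, against 10.78 and 10.80 in control, and was the chaperone whose knockout arrays both lay above the controls, by 0.11 (SE 0.098). Calr ranged more widely among the knockout pools, with 8.34 and 8.72, against 8.48 and 8.47 in control, and had a change of 0.055. The disulfide isomerase genes Pdia3 and Pdia6 had 0.046 and 0.057. The BiP cochaperone genes Dnajb9, Dnajb11 and Dnajc3 had −0.075, 0.052 and 0.076, and Sdf2l1, whose product works with such cochaperones, had 0.098.

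Creld2 and Manf encode ER proteins that are induced by stress and can be secreted. Creld2 had 6.81 and 7.01 in knockout, against 7.20 and 7.08 in control. Both knockout arrays lay below the controls, opposite to Canx, with a change of −0.23 (SE 0.12, 95% interval −0.51 to 0.05, limma adjusted p = 0.780). Manf had 0.090, with 7.76 and 7.45 in knockout, against 7.47 and 7.55 in control. Each of the 12 chaperone genes had a 95% interval, not adjusted for the number of genes, that lay within a 1.5-fold change in either direction.

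ER-associated degradation was covered by 5 members, none of them called, against 0.201% of all genes. None of the 5 had an unadjusted limma p under 0.05, against 7.07% of all genes. Herpud1, a membrane organiser of the degradation complex with both an ERSE-II and a CARE upstream, had 6.80 and 6.87 in knockout, against 6.83 and 6.85 in control, a change of −0.0090 (SE 0.098). Syvn1, the ubiquitin ligase of the complex, and Sel1l, its partner, had 0.039 and 0.019, and Edem1, which acts on the glycans of misfolded proteins, had 0.020. Derl1, of the channel through which proteins leave the ER, had −0.13 (SE 0.13), with a low knockout array at 6.79 beside 7.10, against 7.10 and 7.04 in control.

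The 11 ATF4 target genes were more spread out, with Nupr1 called and the other 10 between −0.12 and 0.35. Asns, which makes asparagine, had 8.17 and 8.31 in knockout, against 8.02 and 7.76 in control. The groups did not overlap, but the differences in replicates 1 and 2 were 0.16 and 0.55, and the change of 0.35 (SE 0.13, 95% interval 0.05 to 0.66) did not pass over all genes (unadjusted p = 0.0304, limma adjusted p = 0.642). It ran from 0.22 without control replicate 2 to 0.48 without control replicate 1. A larger change in either direction was seen in 4.67% of all genes.

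Ddit3, which encodes the transcription factor CHOP, had 8.14 and 8.22 in knockout, against 7.98 and 8.01 in control. Both knockout arrays lay above the controls, by a mean of 0.18 (SE 0.098, 95% interval −0.06 to 0.42, limma adjusted p = 0.792). Ppp1r15a, the inducible counterpart of Ppp1r15b in eIF2 dephosphorylation, had 5.78 and 5.93 in knockout, against 5.73 and 5.74 in control. Its groups also did not overlap, with a change of 0.12. Both knockout arrays lay above both controls in 17.0% of all genes. Atf5, a transcription factor translated under stress, had 0.12, and Slc7a11, the cystine and glutamate exchanger, 0.22 with overlapping groups (4.68 and 4.33 in knockout, against 4.44 and 4.13 in control). When 1 array was left out, Atf5 ran from 0.0059 to 0.23, the lowest without knockout replicate 2, and Slc7a11 from 0.047 to 0.39, the lowest without knockout replicate 1.

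The remaining ATF4 targets lay below 0. Vldlr, a lipoprotein receptor, had 9.61 and 9.71 in knockout, against 9.80 and 9.76 in control. Psat1, of serine synthesis, had 6.04 and 6.04 in knockout, against 6.12 and 6.12 in control, and Sesn2, an inhibitor of mTORC1 signalling, had 4.97 and 5.02 in knockout, against 5.08 and 5.07 in control. In these 3 genes both knockout arrays lay below both controls, as in 18.4% of all genes. The 3 changes were −0.12, −0.084 and −0.076, none called (limma adjusted p between 0.896 and 0.944). Trib3, a pseudokinase that restrains ATF4, and Chac1, which degrades glutathione, had −0.094 and −0.089, and both overlapped between genotypes.

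**Figure D3:**
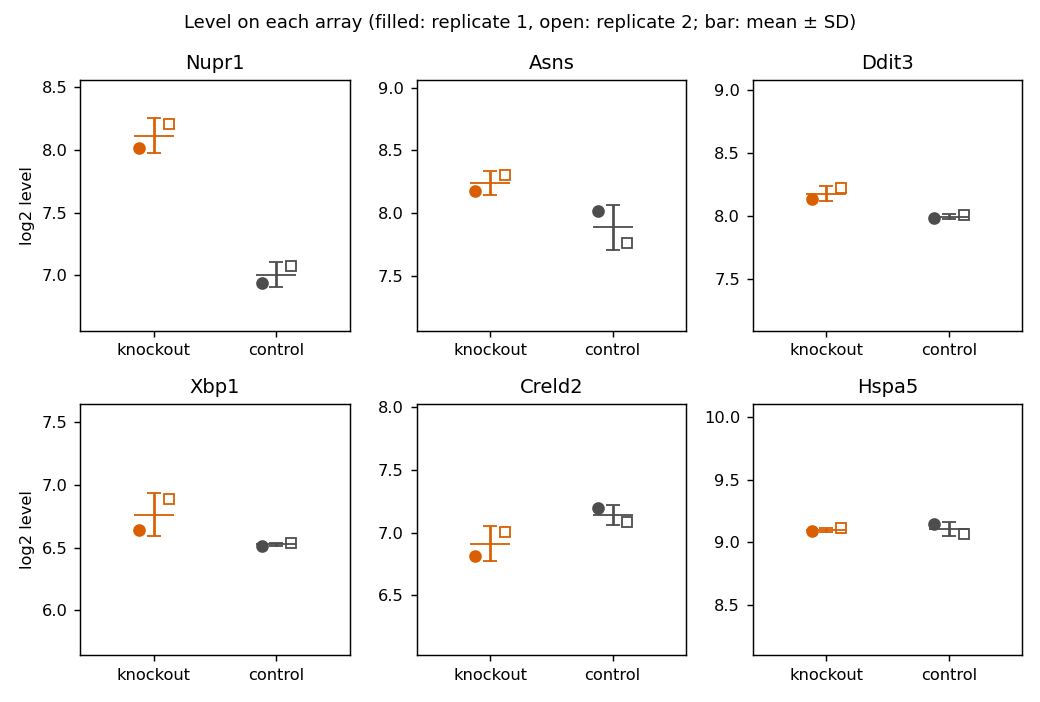
Log2 levels of 6 members on each array, knockout left and control right; filled circles are replicate 1, open squares replicate 2, and bars the mean ± SD (n = 2). Every panel spans 2 log2 units, and the gap between genotypes exceeds the spread of the replicates by far for Nupr1, while the genotypes overlap for Hspa5.

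Set side by side, the chaperones and the ATF4 targets differed little in the middle and more at the upper edge. The highest change was 1.11 in the ATF4 targets (Nupr1) and 0.11 in the chaperones (Canx). The lowest was −0.12 in the ATF4 targets (Vldlr) and −0.23 in the chaperones (Creld2). The median change was 0.12 over the 11 ATF4 targets and 0.053 over the 12 chaperones, against −0.0026 over all genes. The mean level of the ATF4 targets was 6.72 and 6.81 on the knockout arrays, against 6.61 and 6.62 on the control arrays, and that of the chaperones 8.44 and 8.51, against 8.51 and 8.41. The genotypes thus did not overlap for the first list and did for the second, but Nupr1 alone carried most of the first list's difference. The mean change over the 11 ATF4 targets was 0.15, and over the 10 other than Nupr1, a set trimmed after its values were seen, it was 0.053, with mean levels of 6.59 and 6.67 on the knockout arrays, against 6.58 and 6.58 on the control arrays. The median over those 10 was 0.020. The gap between the medians, 0.062, rested on which genes were counted: with narrower lists, 9 ATF4 targets without Ddit3 and Atf5 and 9 chaperones without Dnajc3, Creld2 and Manf, it was −0.13, since the median of the ATF4 targets became −0.076. A filter at the 50th percentile of signal left out Chac1, Ppp1r15a, Sesn2, Slc7a11 and Trib3, all ATF4 targets, and no chaperone. With it the ATF4 target median was 0.15 and the gap 0.096. The medians also rested on single arrays. The ATF4 target median was 0.065 without knockout replicate 1 and 0.0059 without knockout replicate 2, and the chaperone median was −0.0067 without knockout replicate 2 and −0.053 without control replicate 2.

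Beyond the members, 116 other measured genes of protein folding and stress were described in 7 lists, and 0 of them were called by limma. At an unadjusted p under 0.05 there were 5 higher and 2 lower, and the median change was −0.0073. Of all genes, 0.201% were called, and 3.71% were higher and 3.37% lower at that unadjusted p. The named genes are those of smallest p in each list. Among 24 other ATF4-linked genes, Atf3, a transcription factor of the stress response, had 6.37 and 6.59 in knockout, against 5.87 and 6.03 in control, a change of 0.54 (SE 0.12, limma adjusted p = 0.358). Cebpb, a partner of ATF4 on CARE sites, had 5.84 and 6.29 in knockout, against 5.60 and 5.63 in control, a change of 0.45 (SE 0.16, limma adjusted p = 0.641). In both genes both knockout arrays lay above both controls, as in 17.0% of all genes. The median of the 24 other ATF4-linked genes was −0.013.

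The 18 other ER folding genes had a median of −0.083, with Fkbp14, an ER prolyl isomerase, at 0.35 (SE 0.11) and Cdnf, a relative of Manf, at −0.23 (SE 0.13). The 19 other genes of degradation and translocation had a median of −0.017, with Ube2j1, a ubiquitin-conjugating enzyme of the ER, at −0.26 (SE 0.096) and the lectin gene Os9 at 0.22. Ube2j1 had 9.02 and 8.99 in knockout, against 9.26 and 9.28 in control. The 19 other regulators had a median of 0.019, with the kinase gene Eif2ak2 (PKR) at 0.34 and the adaptor gene Nck1 at 0.25. The 16 cytosolic aminoacyl-tRNA synthetase genes, several of which ATF4 activates, had a median of 0.00022, with Yars at 0.24 and Iars at −0.17.

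Chaperones outside the ER gave no common direction either. Among 11 cytosolic heat shock genes the median was 0.013, with the small heat shock gene Hspb1 at 0.43 (SE 0.12, limma adjusted p = 0.518) and the inducible gene Hspa1a at −0.37 (SE 0.13, limma adjusted p = 0.645). Hspa1a had 7.46 and 7.19 in knockout, against 7.61 and 7.79 in control, and signal shared with its near-identical neighbour Hspa1b was not tested. Hspb1 had 6.41 and 6.68 in knockout, against 6.10 and 6.14 in control. The 9 mitochondrial folding and protease genes had a median of 0.0014, with the protease gene Lonp1 at 0.25 and Hspe1 at 0.076.

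**Figure D4:**
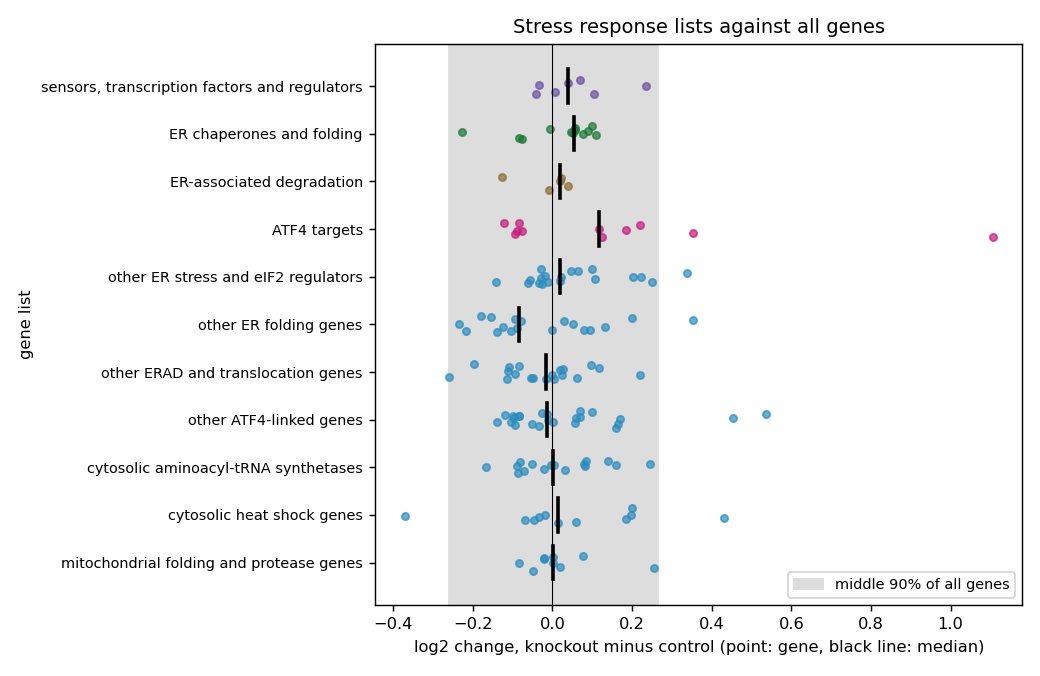
Log2 change, knockout minus control, of each measured gene (points) in the 4 groups of members and the 7 other lists, with the list median as a black line. Grey covers the middle 90% of all 19421 genes, from −0.26 to 0.27; Nupr1, at 1.11, is the point farthest from it, and Atf3 and Cebpb, at 0.54 and 0.45, lie outside it among the other ATF4-linked genes.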

How the data were processed

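Per the labels and the table itself, the authors deposited 1 column of log2 values per array, with 21897 probe sets in each; no source names the scale, which was inferred from the range of 1.34 to 12.75. The submitters' processing notes list affy and limma without a role, and how background and scale were handled is not given in the sources. Names came from the platform annotation, and a gene was represented by its single-symbol probe set of highest mean signal; each measured member had 1 such probe set. The genotypes were tested with the limma package (version 3.58.1, R 4.3.3) by lmFit and eBayes, with genotype as the only term, two-sided p-values and Benjamini-Hochberg adjustment over 19421 genes, called under 0.05. These steps were tested first on simulated data with independent noise on each array. No difference between the sexes was simulated, so that test does not cover the sex difference between the replicates here. Every change is a knockout level minus a control level, in log2 units. Since no detection values were used and low signal was not filtered, weak signals may be background. Precision is limited by the number of arrays. Replicates are pools of different animals, so p-values measure the spread between pools. An exact permutation test of 2 against 2 arrays cannot go below 1 in 3.

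The members, lists, alternatives and tests were chosen with earlier results of these data known. Members with an unadjusted p under 0.05, or with groups that did not overlap and a change of at least 0.3, were to be given with every array's value, the others at least by their change or range, and from each further list the called genes or else the 2 of smallest p. Other genes are named as background checks. Motifs were searched on both strands of the RefSeq promoter entries (GRCm38.p6), which are not tied to the arrays' probes. Of 6 patterns searched, the 3 that are mapped were chosen after the matches were seen. Alternatives were the replicate block, quantile normalization, a filter at the 50th percentile of signal, a variance trend with a robust prior, the mean of a gene's probe sets, narrower lists, and leaving out each array.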

Additional observations from a re-analysis of the deposited data

How the results depend on the processing

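The direction of Nupr1 held in all 9 alternatives, but its call did not: the adjusted p was 0.0019 to 0.0414 with quantile normalization, the signal filter, the variance trend and the mean of probe sets, and the count of members called was 0, not 1, with the replicate block (limma, no member at an adjusted p under 0.05) and without any 1 array (0 to 0). The number of genes called, 39, was 8 with the replicate block, 99 without genes under the 50th percentile of signal, 138 with the variance trend, and 0 to 11 when 1 array was left out; without either control array it was 0 (1355 and 1328 genes at an unadjusted p under 0.05), and fewer arrays and degrees of freedom are part of these settings. Replicate numbers went with the sex of the pools in both genotypes, so the replicate block also compared pools of like sex. The labels do not say that a replicate number marks a shared batch. The deviations of same-numbered arrays from their group means correlated at 0.24 over genes. With narrower lists the median change of the ATF4 targets was −0.076 and its gap to the chaperones −0.13; over the ATF4 targets other than Nupr1, an alternative chosen after seeing the data, they were 0.020 and −0.034. When 1 array was left out, the ATF4 target median ran from 0.0059 to 0.10, the chaperone median from −0.053 to 0.055 and the gap from 0.013 to 0.15. The signs of 21 members, none with a change beyond 0.13, turned in at least 1 of these fits: Trib3 −0.25 to 0.065, Chac1 −0.28 to 0.10, Sdf2l1 −0.015 to 0.21, Hsp90b1 −0.19 to 0.026, Dnajc3 −0.011 to 0.16, Manf −0.066 to 0.25, Dnajb9 −0.20 to 0.047, Pdia6 −0.087 to 0.20, Dnajb11 −0.061 to 0.16, Calr −0.13 to 0.24, Pdia3 −0.10 to 0.19, Hspa5 −0.044 to 0.032, Derl1 −0.28 to 0.028, Edem1 −0.014 to 0.055, Sel1l −0.0094 to 0.048, Herpud1 −0.043 to 0.025, Eif2ak4 −0.085 to 0.29, Eif2ak3 −0.0062 to 0.14, Atf4 −0.090 to 0.0063, Atf6 −0.022 to 0.098 and Ern1 −0.030 to 0.041. Quantile normalization turned Hspa5 to 0.015 and Ern1 to −0.0052. Of the 14 members whose sign held without each array, 10 moved by over 1.5 times: Asns 0.22 to 0.48, Atf5 0.0059 to 0.23, Canx 0.072 to 0.15, Creld2 −0.32 to −0.13, Ppp1r15a 0.050 to 0.20, Ppp1r15b −0.063 to −0.0033, Slc7a11 0.047 to 0.39, Syvn1 0.0094 to 0.068, Vldlr −0.17 to −0.069 and Xbp1 0.11 to 0.36. The cause of these shifts was not tested. The signal filter left out 5 members (Chac1, Ppp1r15a, Sesn2, Slc7a11 and Trib3), whose signal over background is unknown. All 5 are ATF4 targets, and with this filter the ATF4 target median was 0.15 and its gap to the chaperones 0.096.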
